A study of Mus musculus with 40 samples.

Results

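Reg3g and Defb1, which encode antimicrobial proteins of epithelial surfaces, were measured in mouse colonic mucosa with the TaqMan assays Mm00441127_m1 and Mm00432803_m1. These are 2 of the 224 assays of the deposited table and were taken by assay ID. The table lists assay IDs alone, and the gene names are those of the vendor's catalogue. There were 40 samples, 10 in each of 4 groups. Mice raised germ-free, without any microbes, served as the control. The second and the third group were mono-associated, that is colonised with a single bacterial strain, for 21 days, with E. coli CEC or with E. coli Nissle. The fourth group was conventional mice, which carry a complex microbiota, and no length of colonisation is given for it. The labels used here state no mouse strain, sex or age. The series' design text speaks of pooling RNA from individual mice before measurement, yet 40 samples are listed. A sample may therefore not be 1 mouse, and p-values rest on a sample-to-sample spread that could be technical.

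Reg3g is a secreted C-type lectin that binds peptidoglycan and acts mainly on Gram-positive bacteria. It is made by intestinal epithelial cells, and its transcription is known to depend on microbial signals through MyD88 and on interleukin-22 acting through STAT3. Defb1 is the mouse counterpart of human beta-defensin 1, a small cationic peptide with disulfide bridges that is usually described as constitutively made by epithelia rather than induced. E. coli Nissle is a Gram-negative strain used as a probiotic.

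RefSeq (GRCm38.p6) places Reg3g on the minus strand of chr6:78466269-78468874 and Defb1 at chr8:21776555-21795185, both protein-coding. The RefSeq window from 250 bases before to 50 bases after the Reg3g start, chr6:78468825-78469124, minus strand, is shown because Reg3g was the member whose transcript level differed between groups. Capitals mark matches to TATAAA on either strand and to the NF-kappa-B consensus.
Reg3g: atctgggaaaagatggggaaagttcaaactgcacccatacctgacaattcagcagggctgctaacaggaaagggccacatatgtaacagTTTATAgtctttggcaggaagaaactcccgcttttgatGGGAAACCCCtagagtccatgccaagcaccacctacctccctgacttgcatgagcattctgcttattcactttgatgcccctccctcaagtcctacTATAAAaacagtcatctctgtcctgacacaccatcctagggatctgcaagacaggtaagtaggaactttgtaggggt
TATAAA was found 27 to 22 bases before the start, and again on the opposite strand 161 to 156 bases before it. Among 32851 RefSeq mouse windows of this length, 13.62% hold TATAAA on either strand. The NF-kappa-B match, GGGAAACCCC, lies 123 to 114 bases before the start, and 8.46% of the windows hold such a match. The letters TTCNNNGAA, a STAT motif that 8.3% of windows hold, are not in this window. The motifs do not overlap, and a match is a description of letters and not a site shown to be used.

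The table holds raw threshold cycles (Ct), the PCR cycle at which a well passes the detection threshold, so that a lower Ct means more template, by about 2-fold per cycle. A Ct of exactly 40 stands for an undetermined well. To give relative expression in log2 units, the Ct of an assay was subtracted from the median Ct of its sample, taken over the 203 assays without any value of 40. The sample median lay between 21.57 and 24.27 cycles, and its mean was earliest in the conventional group at 21.96 ± 0.288 and latest in the CEC group at 22.72 ± 0.838 (SD, n = 10 each). Each sample had 6 to 15 undetermined wells. Markers of cell types could not be checked, since the assay IDs are not paired with genes here. In a whole mucosa sample, fewer cells that make a transcript and less transcript per cell cannot be told apart.

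Reg3g was lowest in mucosa of mice with E. coli Nissle and highest in conventional mucosa, and the difference between the means of these 2 groups passed the test, although their ranges overlapped. Conventional samples had 9.78-fold more Reg3g than Nissle samples. The means of CEC and conventional samples were 0.08 and 0.41 log2 units, and the germ-free mean lay between those of CEC and Nissle. Among samples with a measured value Defb1 ran in another order, with the highest mean in germ-free samples, and none of its differences passed the test.

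Reg3g was measured in all 40 samples. In germ-free samples its relative expression ran from -3.65 (replicate 11) to 0.17 (replicate 33), with a median of -1.34 and a mean of -1.63 ± 1.40 log2 units (SD, n = 10). In CEC samples it ran from -3.50 (replicate 5) to 6.78 (replicate 6), with a median of -0.61 and a mean of 0.08 ± 2.92 (SD, n = 10). Replicate 6 stood 4.70 log2 units above the next CEC sample, replicate 9 at 2.08, and its raw Ct of 17.01 was the earliest of all 40. Without it the CEC mean was -0.66 ± 1.84 (SD, n = 9). In Nissle samples Reg3g ran from -5.78 (replicate 1) to -0.11 (replicate 3), with a median of -2.75 and a mean of -2.88 ± 1.66 (SD, n = 10). In conventional samples it ran from -2.90 (replicate 3) to 3.43 (replicate 9), with a median of 0.31 and a mean of 0.41 ± 2.28 (SD, n = 10).

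These ranges overlapped in every pair of groups. Conventional samples spread widely: replicates 6, 8 and 9 lay at 3.25, 2.73 and 3.43, while replicates 3, 5 and 7 lay at -2.90, -1.95 and -1.97, within the germ-free range. Nissle samples had the only values below -4, in replicates 1 and 6 at -5.78 and -5.13. The highest and lowest samples of a group differed 14.2-fold in germ-free, 50.7-fold in Nissle, 80.4-fold in conventional and 1240-fold in CEC mucosa.

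**Figure D1:**
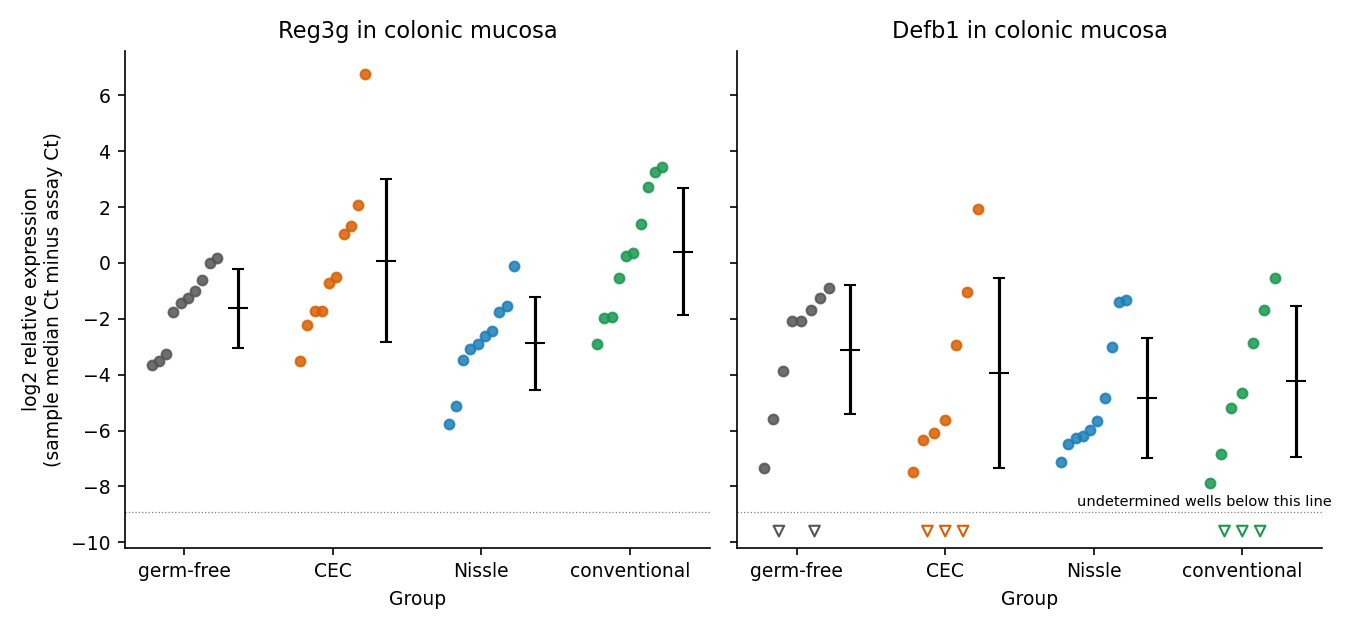
Log2 relative expression (y axis, sample median Ct minus assay Ct) of Reg3g and Defb1 in the 4 groups (x axis), with 1 point per sample, sorted within its group, and the mean ± SD of the measured samples in black. Open triangles are undetermined Defb1 wells and carry no level. Reg3g is lowest in Nissle and highest in conventional samples, with CEC replicate 6 at 6.78, and Defb1 spreads over several log2 units in each group.

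Groups were compared with limma over all tested assays, with Benjamini-Hochberg adjustment within a comparison. Against germ-free mucosa, which asks what colonisation changes in the response of the gut surface, no difference of Reg3g passed the threshold of 0.05. Conventional samples averaged 2.04 log2 units above germ-free (standard error 0.929, 4.10-fold, 95% confidence interval 1.12 to 15.1), with adjusted p = 0.134 and unadjusted p = 0.0345. Of the 10 conventional samples 7 lay above the germ-free mean and 6 above the highest germ-free sample. Without CEC replicate 6, which enters through the shared estimate of spread, the same difference had adjusted p = 0.061 (limma). It passed, at 2.42, when limma's sample quality weights gave less weight to samples that deviate over many assays (adjusted p = 0.00596). With these weights 72 of 214 tested assays passed in this comparison, against 38 without them.

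After E. coli CEC the mean Reg3g level was 1.71 log2 units above germ-free (standard error 0.929, 3.27-fold, interval 0.889 to 12.04; limma, adjusted p = 0.282). CEC samples were split, with 6 above and 4 below the germ-free mean. The difference was 0.97 without replicate 6 (limma, adjusted p = 0.464) and 0.61 with sample quality weights (limma, adjusted p = 0.496). After E. coli Nissle the mean differed from germ-free by -1.25 log2 units, or 2.38-fold less, with an interval from 0.647 to 8.77-fold (limma, adjusted p = 0.441), and 8 of 10 Nissle samples lay below the germ-free mean. Neither Reg3g nor Defb1 was called in these comparisons, in which 8.45% (CEC), 6.51% (Nissle) and 17.8% (conventional) of the tested assays passed. All 3 comparisons use the same germ-free samples.

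The direct comparison of the strains asks whether 2 E. coli strains leave the mucosa in different states. Reg3g averaged 2.96 log2 units more after CEC than after Nissle (standard error 0.929, 7.80-fold, interval 2.12 to 28.7), which ranked 3rd by size among 214 tested assays. Its unadjusted p was 0.00282 and its adjusted p 0.0754 (limma), above the threshold, in a comparison in which 3.27% of the assays passed. CEC samples lay above the Nissle mean in 9 of 10 cases, and 4 lay above the highest Nissle sample. A permutation test of Reg3g by itself gave p = 0.00701, or 0.021 adjusted over the 6 comparisons of this gene. The limma adjustment was over 214 assays, and the unadjusted permutation p was larger than that of limma. The difference was 2.22 without CEC replicate 6 (limma, adjusted p = 0.137) and 3.36 without CEC replicate 5, where it passed (limma, adjusted p = 0.0432). With sample quality weights it was 1.73 (limma, adjusted p = 0.151), and with only these 2 groups in the fit its adjusted p was 0.2 (limma).

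Against conventional mucosa the 2 strains gave different values. Reg3g in Nissle minus conventional samples was -3.29 log2 units (standard error 0.929, interval -5.17 to -1.41, or 2.66 to 35.98-fold less), which passed with adjusted p = 0.00874 (limma). All 10 Nissle samples lay below the conventional mean, 4 lay below the lowest conventional sample, and 6 conventional samples lay above the highest Nissle sample. The call is 1 among 26% of the assays tested in this comparison, in which Reg3g ranked 8th of 215 by the size of its difference. Leaving out any 1 sample gave differences from -3.66 to -2.95, all past the threshold. Reg3g in CEC minus conventional samples was -0.33 log2 units (interval -2.21 to 1.55; limma, adjusted p = 0.853), in a comparison in which 25.7% of the assays passed. That interval spans a 4.61-fold deficit and a 2.93-fold excess, so it does not show that CEC and conventional mucosa hold equal amounts, and the sign turned without CEC replicate 5 or conventional replicate 9. Without CEC replicate 6 the difference was -1.07 (limma, adjusted p = 0.324). With sample quality weights it was -1.81 and passed (limma, adjusted p = 0.0356). With these weights 105 of 214 tested assays passed in this comparison, against 55 without them.

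In the order Nissle, germ-free, CEC, conventional, no pair of neighbours differed beyond its spread. This order is that of the means, so the pair at its ends had the largest difference by construction. No other pair of groups passed.

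**Figure D2:**
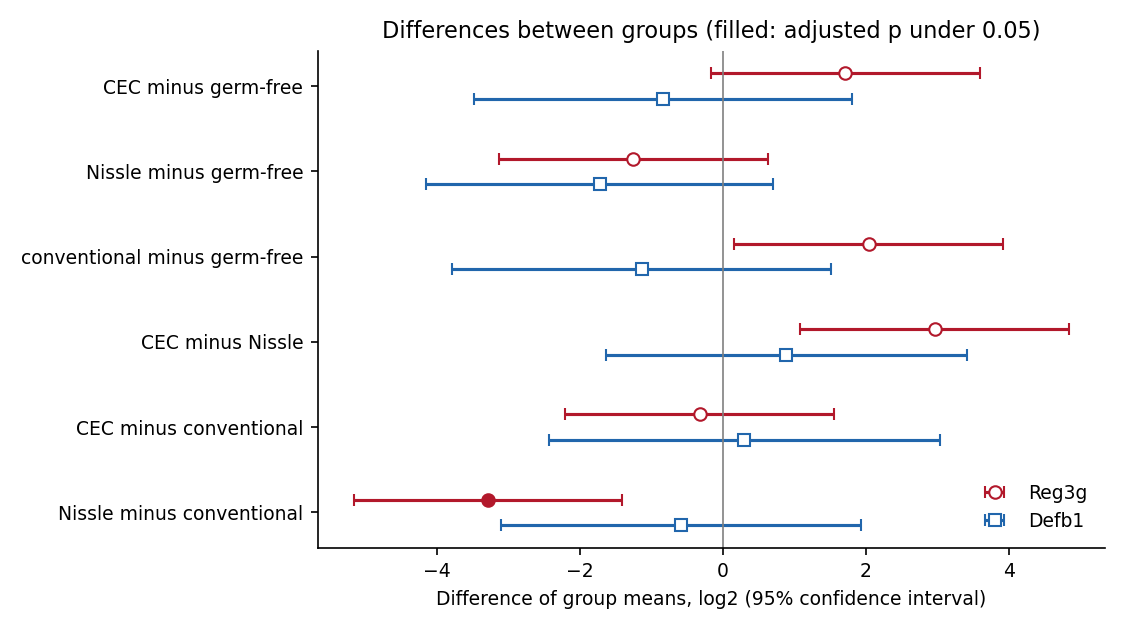
Difference of group means in log2 units (x axis) with 95% confidence intervals from limma, for the 6 pairs of groups (y axis); circles are Reg3g, squares are Defb1, and filled markers passed at an adjusted p under 0.05. Only Reg3g in Nissle minus conventional is filled, at -3.29, while every Defb1 interval crosses 0.

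Defb1 was measured in 32 of the 40 samples: 8 of 10 germ-free, 7 of 10 CEC, all 10 Nissle and 7 of 10 conventional samples. No pair of groups passed a test of detection (Fisher's exact test; the smallest p was 0.21, adjusted 0.632, for Nissle against CEC or conventional). The measured Ct values of Defb1 ended at 29.99, which leaves 10.0 cycles without a value before the undetermined mark at 40. Among all assays, 187 wells were measured at a Ct above 30, up to 36.67. The 8 samples with an undetermined Defb1 well had median Ct values from 21.76 to 23.61, inside the range of all samples.

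In germ-free samples measured Defb1 ran from -7.36 (replicate 30) to -0.91 (replicate 10), with a median of -2.08 and a mean of -3.10 ± 2.31 log2 units (SD, 8 samples). The CEC samples ran from -7.49 (replicate 2) to 1.95 (replicate 8), with a median of -5.63 and a mean of -3.94 ± 3.42 (SD, 7 samples). Nissle samples ran from -7.13 (replicate 4) to -1.31 (replicate 10), with a median of -5.81 and a mean of -4.83 ± 2.14 (SD, n = 10). Conventional samples ran from -7.88 (replicate 7) to -0.52 (replicate 2), with a median of -4.66 and a mean of -4.24 ± 2.69 (SD, 7 samples). All 4 groups held samples near -7 and samples above -1.4. In the Nissle group 7 samples lay between -7.13 and -4.84 and the other 3 between -3.01 and -1.31, while 5 of the 8 measured germ-free samples lay between -2.09 and -0.91.

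None of the 6 differences of Defb1 passed. Nissle minus germ-free was -1.73 log2 units (standard error 1.19, 3.31-fold less, interval 0.615 to 17.8; limma, adjusted p = 0.415), with 7 of 10 Nissle samples below the germ-free mean. The difference from germ-free was -1.14 in conventional (limma, adjusted p = 0.596) and -0.84 in CEC samples (limma, adjusted p = 0.703). Single samples moved both of these by more than 1.5 times: the first ran from -1.76 without conventional replicate 2 to -0.53 without conventional replicate 7, and the second from -1.82 without CEC replicate 8 to -0.25 without CEC replicate 2. With sample quality weights CEC minus germ-free was -2.30 (limma, adjusted p = 0.0904) and Nissle minus germ-free -1.91 (limma, adjusted p = 0.197), so the order of the colonised groups was not settled. Between colonised groups the differences were 0.89 for CEC minus Nissle (limma, adjusted p = 0.736), 0.30 for CEC minus conventional (limma, adjusted p = 0.927) and -0.59 for Nissle minus conventional (limma, adjusted p = 0.77). Standard errors ran from 1.19 to 1.34 log2 units, so that differences of several fold were not detectable with these samples.

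These values leave out undetermined wells, and why those wells gave no value was not tested. With those wells set to 37.67 cycles, 1 above the highest measured Ct, Nissle minus germ-free became 0.75 log2 units, CEC minus Nissle -2.42 and Nissle minus conventional 2.85, since no Nissle well was undetermined. None of these passed (limma, adjusted p = 0.883, 0.585 and 0.345).

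Both transcripts varied more among samples of a group than most of the panel. The SD within groups, pooled over the 4 groups, was 2.15 log2 units for Reg3g and 2.62 for Defb1, against a median of 0.596 over 213 tested assays. They ranked 8th and 7th from the largest. For Reg3g the SD was 1.40 in germ-free, 1.66 in Nissle, 2.28 in conventional and 2.92 in CEC samples, and the differences between these SDs were not tested.

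**Figure D3:**
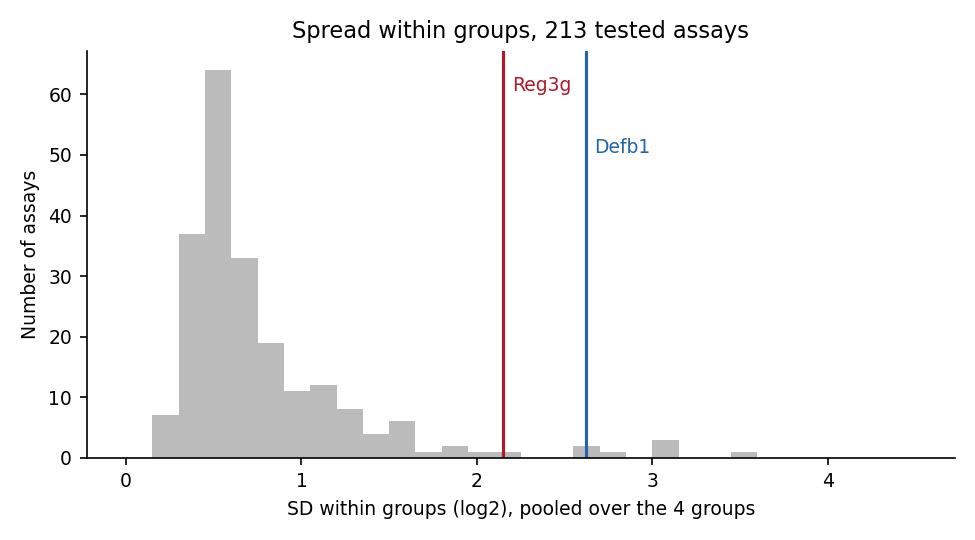
Number of assays (y axis) by SD within groups in log2 units, pooled over the 4 groups (x axis), for 213 tested assays; vertical lines mark Reg3g at 2.15 and Defb1 at 2.62. Both lie in the upper tail, far from the median of 0.596.

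The Ct of Defb1 minus that of Reg3g gives the log2 ratio of Reg3g to Defb1 in a sample without any normalizer. Only its differences between groups are read, since 2 assays need not amplify alike. The ratio averaged 1.63 ± 2.88 in germ-free (SD, 8 samples), 1.95 ± 2.72 in Nissle (SD, n = 10), 3.82 ± 3.45 in conventional (SD, 7 samples) and 4.47 ± 3.64 in CEC samples (SD, 7 samples). CEC exceeded germ-free by 2.84 log2 units (standard error 1.71; exact permutation test, two-sided p = 0.115, adjusted p = 0.343 over 6 comparisons) and Nissle by 2.52 (exact permutation p = 0.122, adjusted p = 0.343). Conventional samples exceeded germ-free by 2.19 (exact permutation p = 0.201, adjusted p = 0.343), and Nissle minus conventional was -1.87 (exact permutation p = 0.229, adjusted p = 0.343). The remaining 2 differences were 0.32 for Nissle minus germ-free and 0.66 for CEC minus conventional (exact permutation p = 0.812 and 0.714). With single samples left out, CEC minus germ-free ran from 2.23 to 3.69 and CEC minus Nissle from 1.91 to 3.38. Without conventional replicate 8 conventional minus germ-free was 1.23 and Nissle minus conventional -0.91, which ran down to -2.51 without conventional replicate 3. CEC minus conventional ran from 0.0163 to 1.62. Samples with an undetermined Defb1 well have no ratio, among them conventional replicates 6 and 9. Their Reg3g, at 3.25 and 3.43, was the highest of that group. Among samples with both measured, a larger response of Reg3g than of Defb1 was thus not detectable in any pair of groups.

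Within groups the 2 transcripts showed no relation that passed a test. Pearson's r was -0.13 over 8 germ-free samples (exact permutation p = 0.792), 0.42 over 7 CEC samples (exact permutation p = 0.363), -0.0046 over 10 Nissle samples (permutation p = 0.99) and -0.053 over 7 conventional samples (exact permutation p = 0.907). Spearman's rho was -0.167, 0.429, -0.139 and 0 in the same order (permutation p = 0.703, 0.354, 0.708 and 1). All 4 Pearson values had an adjusted p of 0.99, and the Spearman values had 0.944, 0.944, 0.944 and 1. Without the 2 samples farthest from the median of Reg3g, r was -0.575, 0.52, -0.098 and 0.59, over 6, 5, 8 and 5 samples. The sample with the most Reg3g, CEC replicate 6, had Defb1 at -1.02, and the sample with the most Defb1, CEC replicate 8, had Reg3g at 1.31.

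**Figure D4:**
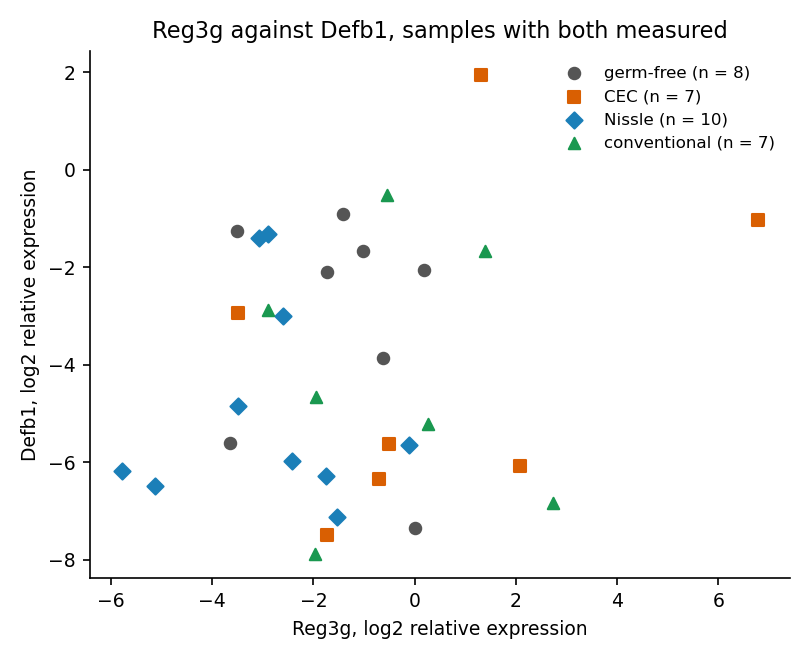
Log2 relative expression of Reg3g (x axis) against Defb1 (y axis) in the 32 samples with both measured, marked by group. The points form no line within a group, and CEC replicates 6 and 8 lie apart at the right and at the top.

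Among 152 other assays measured in all samples, Mm01195718_m1 had the pattern most like Reg3g, with a Pearson r of 0.701 over 40 samples. It was 0.56 without CEC replicate 6, and 0.704 after each group was centred on its mean, so the likeness lay among samples within groups. Mm01195718_m1 averaged -1.79 ± 3.71 in CEC samples against -3.85 ± 0.68 in germ-free, -4.02 ± 1.60 in Nissle and -3.24 ± 0.851 in conventional samples (SD, n = 10 each). The second was Mm01326247_m1, with r = 0.65 (0.479 without CEC replicate 6), and the most opposed was Mm01295719_m1, with r = -0.75 (-0.64 without it). Over the 32 samples with a measured Defb1, Mm00484683_m1 was most like it, with r = 0.81, and 0.793 with groups centred. Its mean was highest in germ-free samples at -2.65 ± 1.25, followed by CEC at -3.68 ± 1.94, Nissle at -3.96 ± 0.989 and conventional samples at -4.20 ± 1.28 (SD, n = 10 each). Mm00458226_m1 followed with r = 0.567, and Mm00490152_s1 was most opposed with r = -0.62. These correlations share the sample normalizer, and the files do not pair the IDs with genes.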

How the data were processed

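Colonic mucosa RNA was prepared with a mirVana kit and run on custom TaqMan OpenArray cards, per the labels' protocols. Per the file headers, the authors deposited raw Ct values, in a table that calls itself a truncated example. No source used here states the threshold setting or quality filters. Of 8960 wells 405 (4.52%) were undetermined. Filled-in values (156, spread over 51 assays) were recognised by equality, within 2e-06 cycles, with the mean of other values of their group. They were left missing with the undetermined wells in the values compared, but stayed in the sample median over 203 assays. With the median over the 153 assays measured in all samples, Reg3g in Nissle minus conventional samples was -3.22 (limma, adjusted p = 0.00909). No filled-in value was one of Reg3g or Defb1. No samples held identical values: the closest pair differed by a median of 0.217 log2 units, against 0.548 over all pairs. Whether samples shared RNA was not tested.

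Log2 relative expression was tested with limma 3.58.1 (R 4.3.3; lmFit, eBayes), two-sided, in 1 fit of 4 groups over all assays with at least 5 measured samples in both groups compared. The limma fit was tested on simulated data for CEC against germ-free, and the other steps were not. The simulated noise was normal with the same spread in all groups, unlike the unequal SDs of Reg3g. Single values and ratios used permutation tests, exact where a group had under 10 values (100000 resamples otherwise), and Defb1 detection used Fisher's exact test. Assays most like a member were those with the highest 2 and the lowest Pearson r. The members, lists and tests were chosen with earlier results of these data known, and the promoter motifs after the sequence was seen. Planned lists of related genes and cell type markers were not used here, since no table pairs assay IDs with genes. Alternatives were other normalizers, other treatment of undetermined and filled-in wells, other filters, fits, weights and tests, a replicate block, and samples left out. Leaving out a sample from outside the groups compared does not alter their difference of means, nor, for a ratio, its permutation p. Such alternatives say little about how firmly a result holds. Only Reg3g for Nissle against conventional had passed, so no other result could lose a call. Plots used matplotlib 3.10.9.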

Additional observations from a re-analysis of the deposited data

Results flagged for a closer look

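The effect of E. coli Nissle on Reg3g, relative to germ-free mucosa, differed from that of conventional microbiota by -3.29 log2 units. The test of the difference itself, which is the direct comparison of the groups, passed (limma, adjusted p = 0.00874, and 0.000481 to 0.0247 over 56 alternatives). Relative to germ-free the difference was -1.25 for Nissle and 2.04 for conventional samples, and neither passed by itself. All 10 Nissle samples lay below the conventional mean. The conventional group has no stated length of colonisation, so the kind of microbiota and its duration cannot be told apart.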

How the results depend on the processing

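In all 56 alternatives Reg3g in Nissle minus conventional samples kept its direction and passed, from -3.71 (10 most stable assays as the normalizer) to -2.95 (without conventional replicate 9). Of all 875 alternative values 850 kept direction and side, 4 newly passed and 21 changed sign. Many could hardly change. Only those 56 could lose a call, and 0 did. Reg3g newly passed with sample quality weights for conventional against germ-free (2.42, limma adjusted p = 0.00596) and for CEC against conventional (-1.81, adjusted p = 0.0356). With these weights 72 and 105 of 214 tested assays passed, against 38 and 55 without them. For CEC against Nissle it passed without CEC replicate 5 (range 2.22 to 3.36 over samples left out), and was 1.73 with sample quality weights. It also passed in the permutation test (2.96), adjusted over 6 comparisons instead of 214 assays. For CEC against conventional that range was -1.07 to 0.0712. Causes were not tested.

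No difference that changed sign had passed. With undetermined wells 1 cycle above the highest Ct (none in Nissle) Defb1 was 0.75 for Nissle against germ-free, -2.42 for CEC against Nissle and 2.85 for Nissle against conventional. For CEC against Nissle and against conventional it was -0.38 and -1.47 with sample quality weights, and -0.0679 and -0.186 without CEC replicate 6 and Nissle replicates 4 and 5. For the latter it was -0.48 without normalization. With single samples left out Defb1 ran from -0.0934 to 1.48 (CEC against Nissle), -0.68 to 0.92 (CEC against conventional) and -1.20 to 0.0316 (Nissle against conventional). The ratio for Nissle against germ-free was -0.46 without those 3 samples and -0.24 to 1.14 without single ones, and r in conventional samples was 0.59 without the 2 farthest. Defb1 could not be tested among assays measured in all samples.

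Same-numbered colonised samples were fitted as unpaired, and pairing was not tested. Deviations correlated above 0.1 in 11 of 30 pairs (7 of 10 CEC-conventional, 3 of 10 Nissle-conventional, 1 of 10 CEC-Nissle). Of 30 samples 6 correlated best with their own number. With the replicate block, Reg3g for Nissle against conventional was -3.29 (limma, adjusted p = 0.0228). Among colonised groups 3, 45 and 40 assays passed, against 7, 55 and 56 without it. Over all alternatives but samples left out, assays past the threshold numbered 12 to 79 (CEC), 7 to 38 (Nissle) and 20 to 72 (conventional) against germ-free, where 18, 14 and 38 were reported, and 0 to 19, 39 to 105 and 21 to 88 among colonised groups. The 0 came from limma on CEC and Nissle alone (23 at an unadjusted p under 0.05). Samples left out gave 13 to 30, 10 to 24, 15 to 45, 2 to 7, 44 to 75 and 41 to 70. Without normalization the median of all assays reached -0.53 (CEC against conventional).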
